A study of Canis lupus familiaris with 6 samples.

Results

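Aminoacyl-tRNA synthetases, the enzymes that attach each amino acid to its tRNA, were examined in CPEK cells, a line of canine progenitor epidermal keratinocytes. The members were chosen by gene symbol and by the protein-coding biotype in the deposited gene table, which gave 38 of its 35993 genes. Of these, 19 encode cytosolic enzymes, 17 encode mitochondrial enzymes (symbols ending in 2), and 2, GARS and KARS, encode the enzyme of both compartments. The naming rule itself used no measured value, but the group was selected on a list drawn up with the difference between dCAMP-treated and gas-treated cells already known. The values below therefore describe that difference and are not independent support for it.

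Each synthetase recognizes its amino acid and the tRNAs that carry it, and the charged tRNA then delivers the amino acid to the ribosome. Cytosolic translation and mitochondrial translation mostly use separate enzymes, all encoded in the nucleus. Glycine and lysine are exceptions, since GARS and KARS each give rise to a cytosolic and a mitochondrial form, and mitochondria charge glutamine by an indirect route without a glutaminyl-tRNA synthetase of their own. Several cytosolic enzymes (EPRS, IARS, LARS, QARS, MARS, KARS, RARS and DARS) are held together in the multisynthetase complex by the scaffold proteins AIMP1, AIMP2 and EEF1E1. The transcription factor ATF4, which is translated when amino acids are scarce or the endoplasmic reticulum is stressed, is known to induce many cytosolic synthetases, together with genes of amino acid synthesis and uptake.

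In what follows, 3 values in a row are those of libraries 1, 2 and 3 of a group. Wild-type CPEK cells were exposed for 30 s either to cold atmospheric microwave plasma directly (dCAMP, 3 libraries) or to the carrier gas alone (gas, 3 libraries). The medium was renewed 15 min later, and RNA was collected after a further 24 h. A group is therefore 3 libraries of 1 cell line at 1 time point. The methods give 3 independent experiments for the data of the study in general, but neither they nor the labels say this of the RNA-Seq libraries, so the p-values below measure only the spread between these libraries, part of which may be technical. In bulk RNA, fewer cells that express a gene and less RNA of it per cell cannot be told apart.

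The gene counts of a library summed to 43084921 to 54082634, and each synthetase had 77 to 25861 counts in every library, so all 38 passed edgeR's filter on low counts. Expression is given as CPM, the count relative to the TMM-normalized library size, when libraries are compared for a gene, and as FPKM, which accounts for transcript length, when genes are compared with each other. The keratinocyte markers KRT5, KRT14, TP63, DSG3, ITGA6 and COL17A1 were all expressed, with KRT5 at 8483 to 11195 FPKM. The 18 markers of fibroblasts, melanocytes, endothelial cells and leukocytes were at most 1.83 FPKM in any library, and PDGFRB, DCN, LUM, TYR, DCT, PECAM1, PTPRC and CD3E were listed at 0 in all 6. Several of the markers also differed between the groups without overlap in CPM. KRT5 and KRT14 were lower (−0.21 and −0.30 on the log2 scale) and DSG3 and ITGA6 higher (0.52 and 0.35) in dCAMP. Of the 8 other markers that passed the filter, COL1A1 was lower and MLANA, CDH5 and KDR higher. The adjusted p-values of all these markers were 0.221 to 0.24 in edgeR. Among all genes tested, 20.9% were lower and 19% higher without overlap. MLANA was near the floor, at 0.0864, 0 and 0 CPM with gas and 0.281, 0.373 and 0.243 CPM with dCAMP. It passed the filter only through the dCAMP libraries, and its groups overlapped in FPKM. The 18 markers of other cell types summed to 2.72 to 3.95 FPKM in the gas libraries and 3.89 to 4.45 FPKM in the dCAMP libraries. The part of these differences in the results below was not tested. The gas libraries varied more than the dCAMP libraries. Across all genes tested, the median coefficient of variation was 16.6% among the gas libraries and 5.89% among the dCAMP libraries, and across the 38 synthetases it was 13.2% and 3.62%.

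The levels of the enzymes were compared first. By mean FPKM over the 6 libraries, cytosolic synthetases had a median of 50.2 and mitochondrial synthetases a median of 6.53. The ratio of the cytosolic to the mitochondrial median FPKM was 7.6, 7.0 and 7.72 in gas libraries 1, 2 and 3 and 7.22, 6.87 and 7.03 in dCAMP libraries 1, 2 and 3, so the groups overlapped. Of the 19 cytosolic enzymes, 18 exceeded 25 FPKM on average. Of the 17 mitochondrial enzymes, 13 were under 13 FPKM. Of the remaining 4 mitochondrial enzymes, TARS2, VARS2 and IARS2 lay among the cytosolic ones and CARS2 lay just under them, above TARSL2 alone.

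**Figure D1:**
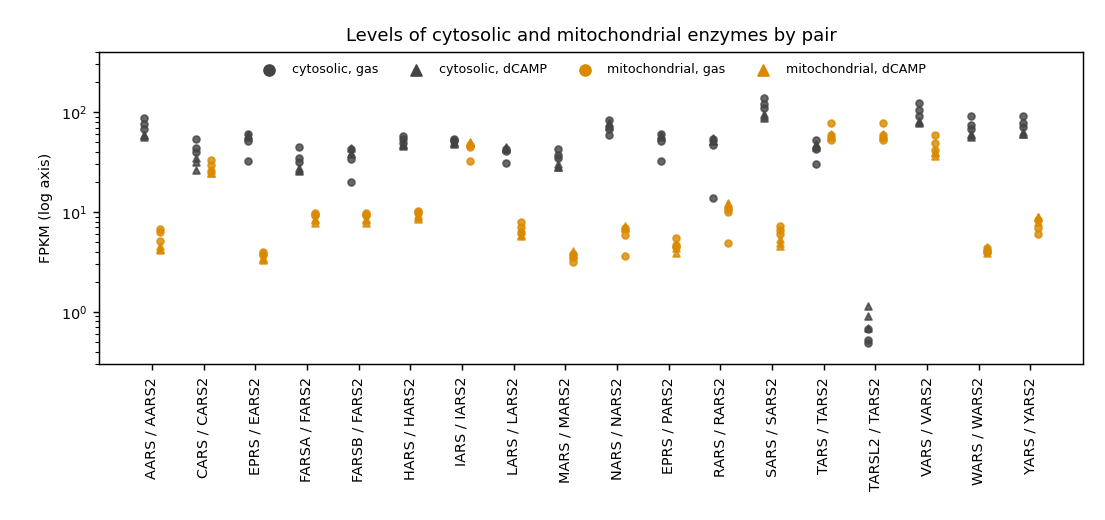
FPKM (log axis) of the cytosolic enzyme (grey) and the mitochondrial enzyme (orange) of 18 pairs in each library, with circles for gas and triangles for dCAMP. Most mitochondrial enzymes lie under 13 FPKM, whereas TARS2, VARS2, IARS2 and CARS2 lie near their cytosolic counterparts and TARSL2 lies lowest of all.

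KARS had the highest levels of the 38, at 180.4, 193 and 179 FPKM with gas and 176, 169.6 and 179 FPKM with dCAMP, followed by GARS with means of 141 and 139.9 FPKM. On average over the libraries, both genes that serve the cytosol and the mitochondria were thus more abundant in FPKM than any gene that serves 1 compartment, although in gas library 1 GARS lay below SARS and VARS. SARS and VARS came next, with means over all libraries of 108 and 93.7 FPKM, and their ranges over the libraries overlapped each other. At the other end was TARSL2, a second cytosolic threonyl-tRNA synthetase, with 0.483, 0.527 and 0.679 FPKM with gas and 1.13, 0.68 and 0.903 FPKM with dCAMP.

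By the mean ratio over the libraries, threonine was the 1 amino acid of the 17 whose mitochondrial enzyme was more abundant than the cytosolic one. The ratio of TARS to TARS2 FPKM was 0.392, 0.725 and 0.99 in gas libraries 1, 2 and 3 and 0.74, 0.787 and 0.85 in dCAMP libraries 1, 2 and 3, below 1 in each library. IARS and IARS2 were close to each other, with ratios of 0.972 to 1.58, as were CARS and CARS2 with 1.0 to 1.62. The largest mean ratio was that of SARS to SARS2, which ranged from 17.1 to 21. The locus of TARS2 overlaps that of LOC111090718 and the locus of CARS2 that of NAXD, and the methods do not say how reads on overlapping genes were counted. In all, 15 of the 38 loci overlap another gene.

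dCAMP-treated cells were then compared with gas-treated cells by edgeR's quasi-likelihood test across 14708 genes with Benjamini-Hochberg adjustment. No synthetase passed an adjusted p of 0.05 (0 of 38; 0% of all genes did), with adjusted p-values from 0.221 to 0.927. The rule of a 2-fold difference together with an unadjusted p below 0.05 was met by 0 of 38, and by 1.09% of all genes. At an unadjusted p under 0.05, 11 synthetases were lower in dCAMP-treated cells, of which 8 were cytosolic and 3 mitochondrial, and 1, TARSL2, was higher. Among all genes tested, 13.9% were lower and 6.81% higher by this threshold. These shares stand beside the members' counts as a background, and nothing is read from the comparison because the contrast was known when the group was chosen.

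By log2 fold change, 23 of the 38 synthetases were lower and 15 higher in dCAMP-treated cells. The median was −0.14 for the 19 cytosolic enzymes and −0.17 for the 17 mitochondrial enzymes, beside 0.03 over all genes tested. The medians of the compartments differed by 0.02, which became −0.05 without gas library 3. Within each compartment the values ranged widely, from −0.56 to 0.70 for cytosolic and from −0.49 to 0.46 for mitochondrial enzymes.

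**Figure D2:**
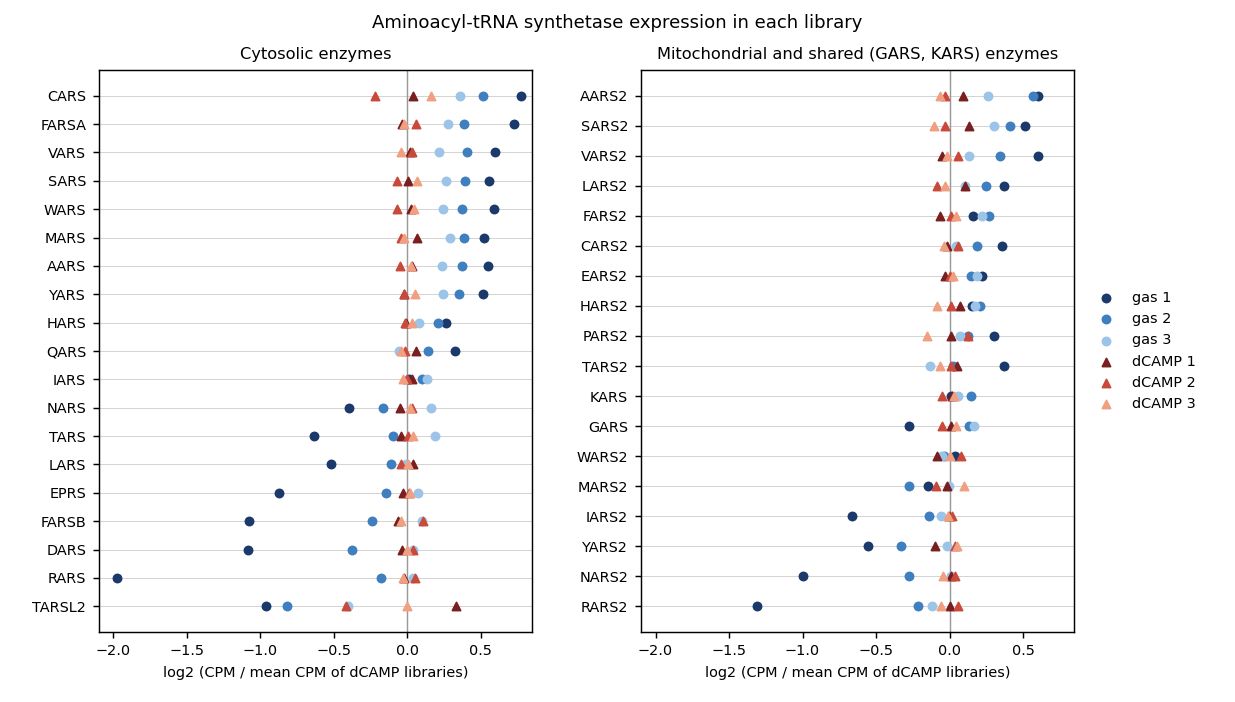
CPM of 37 synthetases in each library relative to the mean of the 3 dCAMP libraries (log2 scale; circles gas, triangles dCAMP), with genes ordered by log2 fold change. At the top of both panels all 3 gas libraries lie to the right of the dCAMP libraries, and toward the bottom gas library 1 lies far to the left while gas library 3 lies near the dCAMP libraries.

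The enzymes with the lowest fold changes formed a group in which the 3 dCAMP libraries lay below the 3 gas libraries. In terms of CPM, 15 synthetases had groups that did not overlap in this direction, beside 20.9% of all genes tested, and 2 (IARS2 and RARS2) in the opposite direction, beside 19%. The 15 were the cytosolic CARS, FARSA, VARS, SARS, WARS, MARS, AARS, YARS and HARS and the mitochondrial AARS2, SARS2, VARS2, FARS2, EARS2 and HARS2.

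CARS, the cysteinyl-tRNA synthetase (gene ID 475998, chr18:46959743-47007521 in CanFam3.1), was at 157, 132 and 118 CPM in gas libraries 1, 2 and 3 and 94.7, 79.1 and 103 CPM in dCAMP libraries 1, 2 and 3. The lowest value was that of dCAMP library 2, and the dCAMP libraries varied more here than in most of the other enzymes. Its log2 fold change was −0.56 (standard error 0.15, edgeR adjusted p = 0.221), the lowest of all members.

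VARS, the valyl-tRNA synthetase (gene ID 481716, chr12:1254954-1269242), was at 559, 489 and 428 CPM with gas and 374, 377 and 358 CPM with dCAMP. SARS, the seryl-tRNA synthetase (gene ID 490124, chr6:42584792-42605201), was at 288, 256 and 235 CPM with gas and 196, 186 and 205 CPM with dCAMP. In both genes gas library 1 was the highest and gas library 3 the closest to the dCAMP libraries. Their log2 fold changes were −0.41 (standard error 0.11) and −0.41 (standard error 0.10), each with an edgeR adjusted p of 0.221.

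The same order of libraries was seen in WARS, the tryptophanyl-tRNA synthetase (gene ID 480435, chr8:68610105-68644616), at 291, 249 and 229 CPM with gas and 196, 184 and 199 CPM with dCAMP. YARS, the tyrosyl-tRNA synthetase (gene ID 478148, chr2:68535402-68566197), was at 254, 226 and 209.6 CPM with gas and 175, 174 and 184 CPM with dCAMP. MARS, the methionyl-tRNA synthetase (gene ID 474414, chr10:1588503-1606752), was at 148, 135 and 126 CPM with gas and 108, 100.2 and 102 CPM with dCAMP. The fold changes of these 3 genes were alike, at −0.41, −0.37 and −0.40 on the log2 scale. The locus of MARS overlaps that of DDIT3, an ATF4 target, which had 12.7, 10 and 8.28 CPM with gas and 7.25, 4.69 and 7.1 CPM with dCAMP, and the loci of WARS and YARS overlap those of WDR25 and S100PBP. AARS, the alanyl-tRNA synthetase, was at 293 ± 31.4 CPM (SD, n = 3) in gas and 223 ± 7.14 CPM (SD, n = 3) in dCAMP, and HARS, the histidyl-tRNA synthetase, at 119 ± 7.55 and 105 ± 1.79 CPM.

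Among the mitochondrial enzymes, AARS2 (gene ID 474920, chr12:12706043-12718821) was at 27.7, 27 and 21.9 CPM with gas and 19.4, 17.8 and 17.4 CPM with dCAMP. SARS2 (gene ID 484518, chr1:114192574-114202385) was at 17, 15.8 and 14.7 CPM with gas and 13, 11.6 and 11 CPM with dCAMP, and VARS2 (gene ID 474833, chr12:681638-694154) was at 239, 199 and 173 CPM with gas and 152, 164 and 156 CPM with dCAMP. The 3 mitochondrial enzymes with the lowest fold changes thus charge alanine, serine and valine, whose cytosolic enzymes are also among those with lower values. Their log2 fold changes were −0.49, −0.41 and −0.37 (standard errors 0.13, 0.12 and 0.13). FARS2, EARS2 and HARS2 had smaller differences of −0.22, −0.18 and −0.18, with gas values of 18.5 ± 0.701, 19.5 ± 0.493 and 27.6 ± 0.544 CPM (SD, n = 3) that varied little. LARS2, CARS2, PARS2 and TARS2 were lower by value (−0.24, −0.20, −0.17 and −0.10), as were QARS and IARS among the cytosolic enzymes (−0.14 and −0.08), but in all 6 the groups overlapped in CPM.

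**Figure D3:**
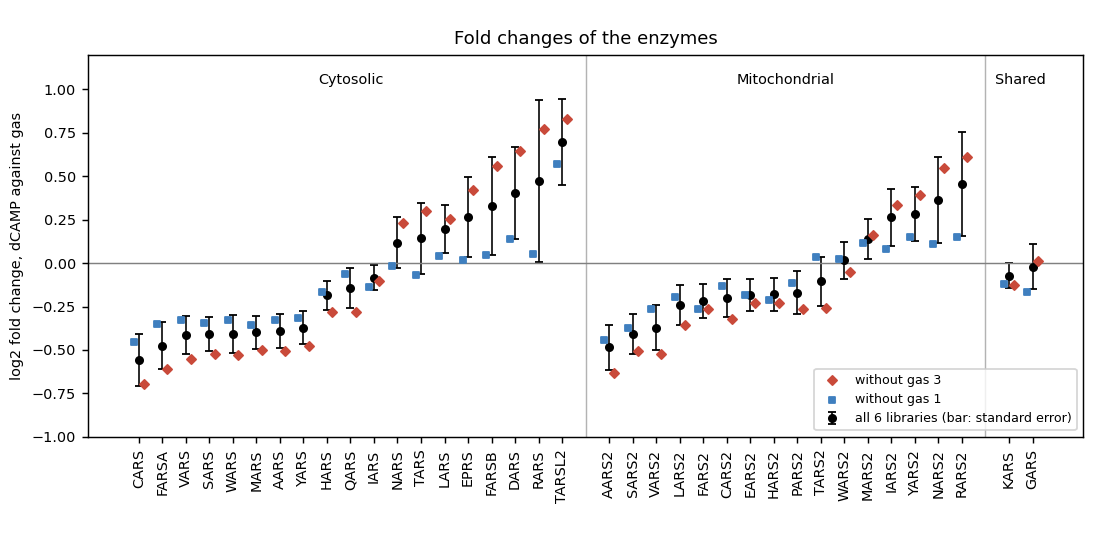
Log2 fold change of dCAMP against gas for 37 synthetases, with all 6 libraries (black, bars show the standard error), without gas library 1 (blue) and without gas library 3 (red). Enzymes from CARS to YARS lie below 0 in each fit, whereas the positive values of RARS, DARS, FARSB and EPRS shrink toward 0 without gas library 1.

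The enzymes with the highest fold changes showed a different arrangement of the libraries. RARS, the arginyl-tRNA synthetase (gene ID 609803, chr4:43237499-43260738), was at 33.1, 115 and 133 CPM in gas libraries 1, 2 and 3 and 128, 135 and 127 CPM with dCAMP. Gas library 1 was far below the rest, gas library 2 lay slightly below the dCAMP libraries, and gas library 3 lay among them. The log2 fold change was 0.47 (standard error 0.47, adjusted p = 0.5), and it became 0.05 when gas library 1 was omitted and 0.77 when gas library 3 was omitted. Its mitochondrial counterpart RARS2 (gene ID 481911, chr12:46993787-47047295) was at 10.1, 21.7 and 23.1 CPM with gas and 25.2, 26.1 and 24.1 CPM with dCAMP, so that gas library 1 was again the low one, although here both other gas libraries also lay below the dCAMP libraries. Its log2 fold change was 0.46, or 0.15 without gas library 1.

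DARS, the aspartyl-tRNA synthetase, had 69.5, 114 and 151 CPM with gas and 144, 152 and 147 CPM with dCAMP. TARS, the threonyl-tRNA synthetase, had 91.2, 132 and 162 CPM with gas and 138, 142 and 146 CPM with dCAMP, and NARS, the asparaginyl-tRNA synthetase, 180.5, 211 and 265 CPM with gas and 229, 243 and 240.5 CPM with dCAMP. In these 3 genes gas library 3 was the highest gas library, within or above the dCAMP range. Their log2 fold changes of 0.40, 0.14 and 0.12 became 0.14, −0.07 and −0.02 without gas library 1.

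Of the mitochondrial enzymes, NARS2 had 10.2, 16.7 and 20.4 CPM in gas and 20.4, 20.8 and 19.7 CPM in dCAMP, and YARS2 had 23.8, 27.7 and 34.5 CPM with gas and 32.7, 35.9 and 36.2 CPM with dCAMP. IARS2 had 116, 168 and 177 CPM with gas and 184, 186 and 183 CPM with dCAMP, with all dCAMP libraries above all gas libraries. Gas library 1 held the lowest value in each of the 3. The log2 fold changes of NARS2, YARS2 and IARS2 were 0.36, 0.28 and 0.26, and became 0.11, 0.15 and 0.08 without gas library 1, while those of MARS2 and WARS2 were 0.14 and 0.02 with overlapping groups. TARSL2 had 1.66, 1.84 and 2.45 CPM with gas and 4.08, 2.43 and 3.23 CPM with dCAMP, and the value of dCAMP library 2 lay just inside the gas range. Its log2 fold change, 0.70 with a standard error of 0.25 (edgeR adjusted p = 0.224), was the highest of the members, on 77 to 189 counts per library.

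A value more than 2-fold below the dCAMP mean was found in gas library 1 for 4 synthetases (RARS, DARS, FARSB and RARS2), beside 20.9% of all genes tested. In gas libraries 2 and 3 it was found for none of the 38, beside 6.45% and 1.99% of all genes. Among the gas libraries, gas library 1 was the highest for 13 of the 15 enzymes that were lower without overlap, FARS2 and HARS2 being the exceptions. It was the lowest for 13 of the 15 enzymes that were higher by value, with MARS2 and WARS2 as the exceptions. Both sets were formed from these same values, and no such count was made for all genes. Nothing is therefore read from the place of gas library 1 in them. The part of this library in the results was not tested beyond the fits without it. Without gas library 1, no synthetase passed an adjusted p of 0.05, beside 0.00667% of all genes, and the cytosolic enzymes lower at an unadjusted p under 0.05 again numbered 8. The share of all genes at the unadjusted threshold was not computed for this fit. Without gas library 3, 13 synthetases passed an adjusted p of 0.05 in edgeR. Of these, 12 were lower (CARS, FARSA, VARS, SARS, WARS, MARS, AARS, YARS, HARS, AARS2, SARS2 and VARS2), beside 18.1% of all genes, and 1, YARS2, was higher, beside 15%. The count also differed between tools. With limma's voom and sample quality weights, 21 synthetases were lower at an adjusted p under 0.05, beside 28.2% of all genes, and 9 were higher, beside 32.6%. With DESeq2 on all genes with a count, MARS alone was called, as lower, beside 1.98% of all genes.

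GARS and KARS, the enzymes for both compartments, had fold changes close to 0 with all 6 libraries. GARS (gene ID 100856659, chr14:43308274-43351999) was at 314, 416 and 426 CPM with gas and 383, 367 and 391 CPM with dCAMP, and KARS (gene ID 479644, chr5:75172976-75188197) was at 394, 434 and 407 CPM with gas and 396, 379 and 399 CPM with dCAMP. Their log2 fold changes were −0.02 (standard error 0.13) and −0.07 (standard error 0.07), and the groups overlapped in CPM in both. Without gas library 1 the fold changes were −0.17 and −0.12 (edgeR adjusted p = 0.24 and 0.35). Summed over all 38 genes, synthetase transcripts made up 4987, 5224 and 5199 CPM in gas libraries 1, 2 and 3 and 4772, 4725 and 4785 CPM with dCAMP. The sum over the cytosolic enzymes was 3388, 3506 and 3532 CPM in gas and 3168, 3144 and 3187 CPM in dCAMP, without overlap. That over the mitochondrial enzymes was 891, 868 and 834 CPM in gas and 825, 836 and 807 CPM in dCAMP, with overlap. In the mean log2 CPM, where each gene counts equally, the groups overlapped in both compartments. For the cytosolic enzymes it was 6.9, 7.09 and 7.14 in gas and 7.03, 6.98 and 7.02 in dCAMP. The cytosolic minus the mitochondrial mean also overlapped between the groups, so the sums do not show a difference between the compartments.

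To set the compartments against each other within a library, the cytosolic enzyme was divided by the mitochondrial enzyme for the same amino acid, which gives 19 pairs over 17 amino acids because EPRS serves both glutamate and proline and FARSA and FARSB share FARS2 as a partner, as TARS and TARSL2 share TARS2. The ratio was lower in all dCAMP libraries than in all gas libraries in 7 pairs, higher in 3, and overlapped in 9. No ratio over other pairs of genes was computed for comparison. The ratio of YARS to YARS2 FPKM was 15, 11.2 and 8.58 in gas libraries 1, 2 and 3 and 7.51, 6.84 and 7.22 in dCAMP libraries 1, 2 and 3, since YARS was lower and YARS2 higher by value. MARS over MARS2 gave 11.9, 11.8 and 9.2 in gas and 7.95, 7.73 and 6.91 in dCAMP, with MARS2 at 23.4, 21.4 and 25.8 CPM with gas and 25.7, 24.4 and 27.7 CPM with dCAMP. WARS over WARS2 gave 20.8, 18.4 and 17.1 with gas and 15.1, 12.7 and 14.3 with dCAMP, with WARS2 nearly constant at 7.75 to 8.68 CPM. The other pairs with a lower ratio were CARS with CARS2, FARSA with FARS2, IARS with IARS2 and NARS with NARS2.

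The ratio was higher for EPRS over EARS2, at 8.07, 14.1 and 15.8 with gas and 17.1, 17.2 and 17.1 with dCAMP. EPRS, which charges glutamate and proline in 1 protein, had 174, 288 and 336 CPM with gas and 312, 322 and 324 CPM with dCAMP, and EARS2 had 19.9, 18.9 and 19.5 CPM with gas and 16.8, 17.2 and 17.4 CPM with dCAMP. LARS over LARS2 gave 3.97, 5.67 and 6.88 with gas and 6.95, 7.5 and 7.49 with dCAMP. LARS, the leucyl-tRNA synthetase, had 136, 180.2 and 193 CPM with gas and 199, 189 and 195 CPM with dCAMP, and LARS2 had 34.1, 31.2 and 28.3 CPM with gas and 28.4, 24.9 and 25.8 CPM with dCAMP. In both pairs gas library 1 had the lowest ratio and gas library 3 the one nearest to the dCAMP libraries. The difference between the cytosolic and the mitochondrial log2 fold change was −0.66 for tyrosine, −0.54 for methionine and −0.42 for tryptophan, against 0.45 for glutamate and 0.44 for leucine. Without gas library 1 the values for tyrosine, methionine and tryptophan were −0.46, −0.47 and −0.35, and those for glutamate and leucine were 0.20 and 0.24. Larger positive differences were those of FARSB against FARS2 (0.55, or 0.31 without gas library 1) and TARSL2 against TARS2 (0.80, or 0.54). EPRS against PARS2, its partner for proline, gave 0.43, or 0.13 without gas library 1. In the pairs with TARSL2 and PARS2 the ratios overlapped between the groups. With all libraries, the difference for alanine, histidine, arginine, serine and valine was between −0.04 and 0.09, the enzymes of both compartments having similar values.

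Phenylalanine is charged in the cytosol by an enzyme of 2 different subunits, FARSA and FARSB, whose log2 fold changes had opposite signs. FARSA (gene ID 476695, chr20:49258827-49267279) was at 90.3, 71.5 and 66.4 CPM in gas and 53.4, 57 and 53.8 CPM in dCAMP, and FARSB (gene ID 478926, chr37:28647114-28716193) was at 45.5, 81.1 and 103 CPM with gas and 91.8, 103 and 93.4 CPM with dCAMP. The ratio of FARSB to FARSA FPKM was 0.441, 0.975 and 1.35 in gas libraries 1, 2 and 3 and 1.5, 1.56 and 1.49 in dCAMP libraries 1, 2 and 3. It differed widely among the gas libraries and was nearly constant among the dCAMP libraries. Against the mitochondrial FARS2, the ratio of FARSB was higher and that of FARSA lower in all dCAMP libraries, but gas library 3 nearly touched the dCAMP values. The FPKM ratio of FARSB to FARS2 was 2.13, 3.43 and 4.59 with gas and 4.96, 5.25 and 4.61 with dCAMP. That of FARSA to FARS2 was 4.82, 3.52 and 3.39 with gas and 3.32, 3.36 and 3.09 with dCAMP. The log2 fold change of FARSA was −0.47 and remained negative, at −0.35, without gas library 1, where that of FARSB went from 0.33 to 0.05.

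**Figure D4:**
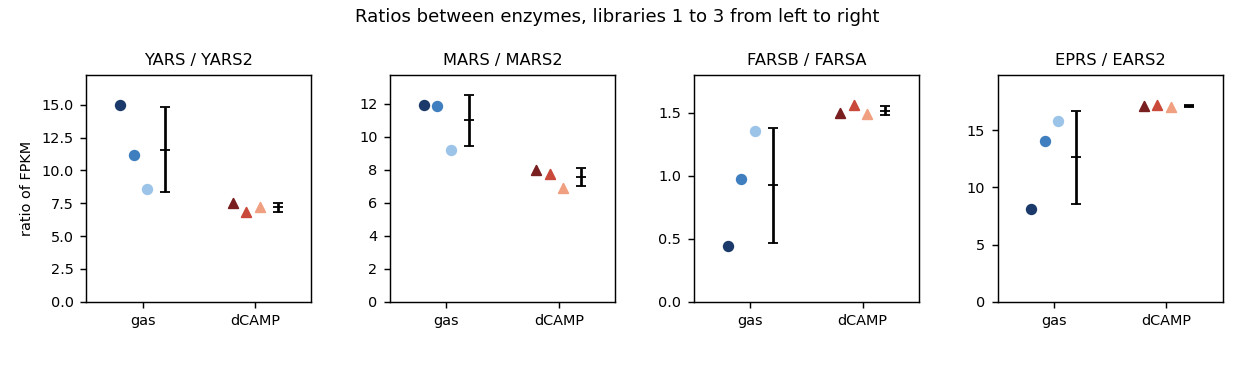
Ratio of FPKM between enzymes in each library (circles gas, triangles dCAMP, bars show mean ± SD, n = 3). YARS over YARS2 and MARS over MARS2 are lower, and FARSB over FARSA and EPRS over EARS2 higher, in the 3 dCAMP libraries, with gas library 3 the nearest to them in each panel.

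The members were also grouped by structure and by known regulation. Synthetases fall into class I and class II by the fold of the catalytic domain. The median log2 fold change of the 9 cytosolic class I enzymes was −0.37, with 7 lower and 2 (LARS and RARS) higher by value, and the 9 of class II had a median of 0.12, with 4 lower and 5 higher. EPRS, which has a catalytic domain of each class, was left out of both. With the mitochondrial and shared enzymes included, the medians were closer, at −0.165 for the 18 of class I and −0.104 for the 19 of class II. The 5 cytosolic class II enzymes that were higher were DARS, FARSB, NARS, TARS and TARSL2. Without gas library 1 their log2 fold changes were 0.14, 0.05, −0.02, −0.07 and 0.57. The 8 enzymes of the multisynthetase complex had a median of 0.06, with MARS, QARS, IARS and KARS lower and DARS, EPRS, LARS and RARS higher by value. The scaffold genes were also divided. AIMP2 had 68.1, 62.6 and 62 CPM in gas and 52.2, 53.3 and 52.1 CPM in dCAMP, without overlap, whereas AIMP1 had 27.7, 51.2 and 72 CPM with gas and 63.8, 74.6 and 67.2 CPM with dCAMP and EEF1E1 18.8, 29.8 and 41.3 CPM with gas and 37.9, 41.7 and 40.9 CPM with dCAMP, with gas library 1 the lowest in each.

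Of 13 synthetases widely known as ATF4 targets, 9 were lower and 4 (EPRS, LARS, NARS and TARS) higher by value, with a median log2 fold change of −0.37. In 7 of them the dCAMP libraries lay below the gas libraries without overlap, namely AARS, CARS, MARS, SARS, VARS, WARS and YARS, beside 20.9% of all genes tested. The other 8 cytosolic or shared enzymes had a median of 0.13, with FARSA and HARS below without overlap. The ATF4 targets EPRS, LARS, NARS and TARS had log2 fold changes of 0.02, 0.04, −0.02 and −0.07 without gas library 1. The remaining ATF4 targets then ranged from −0.46 (CARS) to −0.14 (IARS). Without gas library 1 the log2 fold changes of RARS, FARSB, DARS and TARSL2 were 0.05, 0.05, 0.14 and 0.57. Those of FARSA, HARS, KARS and QARS were then −0.35, −0.17, −0.12 and −0.06. Over ATF4 and the genes it is known to induce, 19 of 20 were found in the table, of which 15 were lower and 4 higher by value, with a median of −0.39. None passed an adjusted p of 0.05, 9 were lower at an unadjusted p under 0.05 (13.9% of all genes were), and 10 lay below the gas libraries without overlap (20.9% of all genes did) and 1, PSPH, above them (19%). ATF4 itself had 655, 595 and 543 CPM with gas and 425, 339 and 444 CPM with dCAMP. Its log2 fold change was −0.57 with a standard error of 0.13 (edgeR adjusted p = 0.221). TRIB3, an ATF4-induced pseudokinase, had 73.7, 56.1 and 50.7 CPM with gas and 25.8, 16.9 and 32 CPM with dCAMP, and SLC7A5, a transporter of large neutral amino acids, 359.8, 296 and 266 CPM with gas and 172, 147 and 189 CPM with dCAMP. In ATF4, TRIB3, SLC7A5 and CARS alike, dCAMP library 2 was the lowest and gas library 1 the highest. This order did not hold throughout either list. Gas library 1 was the lowest gas library for ASNS and PSAT1 and for the synthetases EPRS, LARS, NARS and TARS. A part of ATF4 in the values of the synthetases was not tested. ASNS and PSAT1, which ATF4 is also known to induce, had overlapping groups (−0.26 and −0.22).

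**Figure D5:**
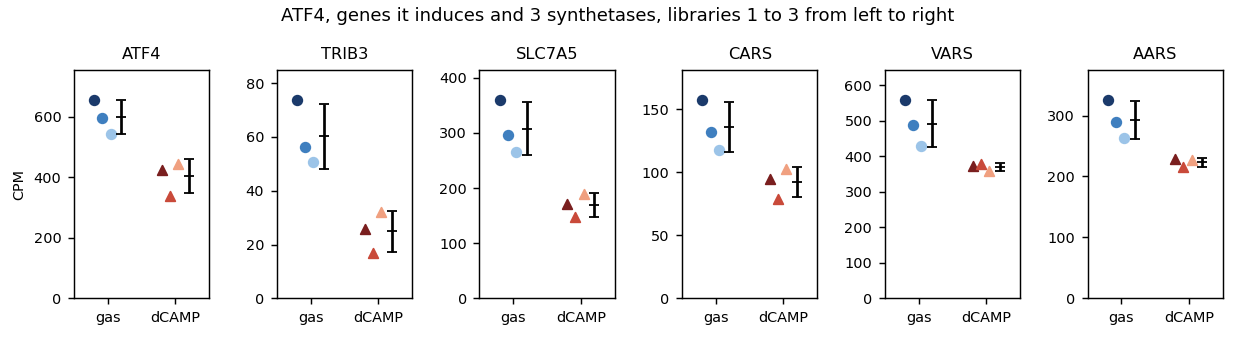
CPM of ATF4, of TRIB3 and SLC7A5, which it induces, and of CARS, VARS and AARS in each library (circles gas, triangles dCAMP, bars show mean ± SD, n = 3). In all 6 genes the 3 dCAMP libraries lie below the 3 gas libraries, and dCAMP library 2 is the lowest in all but VARS.

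Among 20 other genes of tRNA charging and maturation found in the table (of 22 listed, the scaffold genes included), 9 were higher and 11 lower by value, with a median log2 fold change of −0.09, 6 lower and 0 higher at an unadjusted p under 0.05 (beside 13.9% and 6.81% of all genes), and 0 with an adjusted p under 0.05. ELAC2, the nuclease that trims the 3′ end of tRNA precursors, had 118, 101 and 88.5 CPM in gas and 69.4, 74.2 and 68.3 CPM in dCAMP. TUFM, the elongation factor that brings charged tRNAs to the mitochondrial ribosome, had 383, 342 and 280.4 CPM with gas and 258, 251 and 253 CPM with dCAMP. TRMT10C, a subunit of the mitochondrial enzyme that cuts the 5′ end of tRNAs, had 5.12, 15.8 and 21.9 CPM with gas and 22.9, 23 and 25.1 CPM with dCAMP, and TRNT1, which adds the terminal CCA, 12.5, 35.5 and 50.2 CPM with gas and 47.8, 49.5 and 48.4 CPM with dCAMP. Gas library 1 was the highest for ELAC2 and TUFM, as for VARS, and the lowest for TRMT10C and TRNT1, as for RARS. The mitochondrial route to glutaminyl-tRNA, an amidotransferase of QRSL1, GATB and GATC, had overlapping groups in each subunit (0.38, −0.12 and 0.27).

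The deposited transcript table lists 117 transcripts of the 38 genes, and 11 genes have 1 transcript each. In 24 of the other 27 genes, the transcript with the most counts was the same in all 6 libraries, and CARS, EARS2 and RARS2 were the exceptions. GARS had a main transcript (2402 bases, from position 43308274) and one from position 43314234 (2224 bases), whose share of the counts of the gene was 1.1, 1.85 and 3.81% in gas libraries 1, 2 and 3 and 9.82, 8.56 and 4.49% in dCAMP libraries 1, 2 and 3. The second transcript was thus a minor one, with a larger share in each dCAMP library than in any gas library. It was 1 of 4 transcripts of the members whose share was higher in dCAMP by over 5 points without overlap, and 3 were lower by as much. No such count was made over all transcripts. CARS reads were split between transcripts of 2521 and 2775 bases, and the longer one took 51, 51.2 and 13% with gas and 48, 47.6 and 39% with dCAMP, gas library 3 being apart. The 2898-base transcript of TARSL2 was given 21, 32 and 0 counts in gas libraries 1, 2 and 3 and none in dCAMP, where a count of 0 allows up to 3. Whether such shifts lie in the cells or in the assignment of reads was not tested.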

How the data were processed

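RNA-Seq libraries of CPEK cells (3 gas, 3 dCAMP) were analysed. Per the labels and methods, the authors checked reads with FastQC 0.11.7, trimmed them with Trimmomatic 0.38, mapped them to CanFam3.1 with HISAT2 2.1.0 and summarized known transcripts with StringTie 2.1.3b. The deposited counts are whole, unnormalized read counts for 35993 genes and 87504 transcripts. FPKM was computed by the authors, per kilobase of transcript and relative to mapped reads. Each table also holds 6 TPM columns, left unused here.

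The counts were analysed with R 4.3.3 and edgeR 4.0.16 (TMM factors, filterByExpr, which kept 14708 genes, quasi-likelihood test, prior count 2, Benjamini-Hochberg adjustment over all genes tested). CPM is scaled to the TMM-normalized library size, and a standard error is the fold change (log2) divided by the root of F. Ratios between enzymes were taken from FPKM, and the overlap of a pair's ratio between the groups was judged on CPM. Loci are those of the deposited transcript table. Values are given for the 6 cytosolic and 6 mitochondrial members with the largest absolute log2 fold change, GARS, KARS and the enzymes of 6 pairs. These 6 had the largest difference among the pairs whose ratio did not overlap between the groups. Further members are named to account for all. The scripts were tested on simulated data.

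The members, gene lists and alternatives were chosen with earlier results of these data known. Alternatives used DESeq2 1.42.0, limma 3.58.1 (voom, or the log2 of FPKM plus 1 or 0.1), other factors, other filters, a lowess correction for gene length, the replicate number as a block, and leaving out each library. The values of 1 member, which is in all counts and medians, are not reported here. Sequences of proteins and promoters were not analysed here.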

Additional observations from a re-analysis of the deposited data

How the results depend on the processing

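Of the 38 synthetases, 31 kept the sign of their log2 fold change in all 18 alternatives, and the 7 that did not, GARS, MARS2, NARS, TARS, TARS2 and WARS2 among them, lay between −0.10 and 0.14. The cause of the following differences was not tested. The number of synthetases with an adjusted p under 0.05 was 0 in edgeR, 1 (MARS, lower, as were 1.98% of all genes) in DESeq2 on all genes with a count, 0 in DESeq2 restricted to genes counted in every library, 30 in voom with sample quality weights (21 lower and 9 higher, beside 28.2% and 32.6% of all genes) and 0 to 13 when 1 library was left out, with 13 without gas library 3 and 0 in the other 5 fits. In the main edgeR fit, 13.9% of all genes were lower and 6.81% higher at an unadjusted p under 0.05. These shares were not computed for the alternatives, so nothing about the synthetases is read from the counts that follow. At this threshold, 8 cytosolic enzymes were lower, with 8 to 11 over all alternatives. The 1 cytosolic enzyme higher became 6 with voom and 0 to 3 without 1 library (3 without gas library 3, and 0 without gas 1, gas 2, dCAMP 1 or dCAMP 3). The 0 mitochondrial enzymes higher became 5 with voom and 0 to 2 without 1 library, with 2 without gas library 3. The 3 mitochondrial enzymes lower became 8 with voom, 5 with the length trend removed and 1 to 6 without 1 library, with 6 without gas library 3 and 1 without dCAMP library 3.

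The median log2 fold change of the cytosolic enzymes, −0.145, was −0.242 with upper-quartile factors, −0.216 with the length trend removed, −0.202 with that correction and the replicate block, and −0.281 to −0.137 without 1 library. That of the mitochondrial enzymes, −0.169, was −0.184 with both DESeq2 settings, −0.263 with upper-quartile factors, −0.194 with at least 10 counts in every library, −0.149 with voom, −0.143 on the log2 of FPKM plus 1, and −0.229 to −0.117 without 1 library. Upper-quartile factors also moved the median of all genes, from 0.03 to −0.06. The difference between these medians, 0.0244, was −0.0465 with the length trend removed, −0.0376 with that correction and the replicate block, and −0.0523 to 0.0473 without 1 library.

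The replicate numbers are shared by gas and dCAMP. Deviations from the group means of same-numbered libraries correlated at 0.0998, 0.0249 and 0.0381 across genes, the first being the highest of any combination. Differently numbered libraries correlated at −0.101 to 0.0601, and gas library 3 correlated best with dCAMP library 2. These values do not settle whether the numbers mark pairs. The main fit did not take them as pairs, and an alternative did. With the replicate number as a block, 0 synthetases had an adjusted p under 0.05, 8 cytosolic and 3 mitochondrial enzymes were lower at an unadjusted p under 0.05, and the median log2 fold changes were −0.137 and −0.171. Shares of all genes were not computed for this fit. With FPKM in place of CPM, 17 synthetases lay below and 3 above without overlap, against 15 and 2. The share of all genes was computed for CPM only (20.9% below and 19% above), so nothing is read from the FPKM counts. The search for a promoter motif and its stricter form were not run.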
